A study of Mus musculus with 11 samples.

Results

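The genes described here are 54 members of the mouse machinery that carries a cell into and through mitosis: the mitotic cyclins and CDK1, the mitotic kinases, the spindle checkpoint, the anaphase machinery, the kinetochore, the kinesins, and the spindle and cytokinesis proteins. They were chosen by name and function, but with earlier results of these data known. Each of the 54 was found among the 55416 gene identifiers of the deposited table. All 54 passed the filter on low values (a mean of at least 10 normalized counts over the libraries), which left 12909 genes to test. RNA came from EC4, an established line of mouse liver cancer cells in which MYC, a transcription factor that drives growth and proliferation, is switched on (MYC high) or off (MYC low). The cells were held for 24 h in DMEM, a standard culture medium, that contained 10 µM or 200 µM methionine. The 4 groups were MYC high cells at 10 µM (3 libraries), MYC high cells at 200 µM (2 libraries, numbered 2 and 3; replicate 1 was not analysed here), MYC low cells at 10 µM (3 libraries) and MYC low cells at 200 µM (3 libraries). All cells were grown in medium with 200 µM methionine before the 24 h. The labels name neither the agent that switches MYC nor the promoter that drives it, and all libraries are of 1 cell line, so the comparisons describe that line.

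Cyclin B bound to CDK1 is the kinase that starts mitosis. Its activity needs phosphatases of the CDC25 family, and its end comes when the anaphase-promoting complex (APC/C), a ubiquitin ligase, marks cyclin B and securin for destruction. Between these events kinesin motors and microtubule-binding proteins build the spindle, the kinetochore ties each chromosome to it, the spindle checkpoint holds the APC/C back until every chromosome is attached, and a further set of proteins divides the cell. Transcripts of many of these genes are made in G2 and mitosis and are low in G1, so that in bulk RNA more cells in G2 and mitosis and more transcript per such cell cannot be told apart. Many of their promoters hold a CHR element (cell cycle genes homology region), bound by the MuvB complexes with B-MYB, FOXM1 or DREAM partners, and CCAAT boxes, bound by NF-Y.

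Depth was even, at 10858936 to 13085689 gene reads a library and 17395 to 18462 genes seen. Nothing in the labels states that replicates are separate cultures, and the p-values therefore speak of the spread between libraries, which could be technical. Mouse Myc transcript differed between the MYC states by −0.0050 on the log2 scale at 10 µM (95% interval −0.13 to 0.12), and at 200 µM it was 1.84-fold higher with MYC high (0.88, limma adjusted p = 5.99e-14). At 10 µM it thus does not tell the labels apart, and the labels do not say which copy of MYC is switched. None of the 10 hepatocyte markers passed the filter, and no library had a read of Alb (0 reads), which encodes albumin. A count of 0 allows up to 3 reads, or 2.65 to 3.43 normalized counts, in a library. Of the fetal liver and progenitor list 3 of 6 genes passed (Krt8, Krt18 and Afp), while Igf2 and Epcam had 0 reads. None of the fibroblast or endothelial markers passed. Of the macrophage and leukocyte list 3 of 7 passed (Csf1r, Cd68 and Cd14), and Ptprc, which marks leukocytes, had 0 reads. At 10 µM the normalized counts of that list summed to 1061 to 1133 with MYC high and 1302 to 1413 with MYC low. At 200 µM they summed to 644 to 674 with MYC high and 919 to 963 with MYC low. The sum was higher at the lower methionine in both MYC states, but its genes did not move together. Cd68 rose 15.7-fold with MYC high and 2.28-fold with MYC low, and Csf1r rose 1.76-fold with MYC high and 1.77-fold with MYC low. Cd14 fell 1.88-fold with MYC high (log2 −0.91, adjusted p = 1.31e-11) and differed by −0.13 on the log2 scale with MYC low (adjusted p = 0.145). The fetal liver list summed to 12305 to 12777 with MYC high and 20852 to 21439.8 with MYC low at 10 µM. At 200 µM it summed to 8580.5 to 8984 with MYC high and 10682 to 10889 with MYC low. Of its genes Krt8 and Afp rose at 10 µM in both MYC states, while Krt18 fell with MYC high (log2 −0.32) and rose with MYC low (0.42). The part of both lists in the changes of the 54 genes was not tested.

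The promoters are shown because the 54 genes share motifs that the choice of members did not use. RefSeq promoter sequences (build GRCm38.p6; 250 bases before to 50 after the annotated start) were matched to 45 of the 54 genes, with 48 promoters. A CHR element (TTTGAA or TTCGAA, on either strand) was found in 38 of the 48, which is 79.2%, against 13.7% of the promoters of genes tested and 19.2% of all 32851 promoters. A CCAAT box (CCAAT on either strand) was found in 77.1% of the 48, against 38% of the promoters of genes tested and 37.4% of all promoters. Both motifs stood in 68.8% of the 48, in 5.76% of the promoters of genes tested and in 7.52% of all promoters. The E-box CACGTG, the sequence that MYC and MAX bind, was in 3 of the 48 (6.25%). It was in 10.1% of the promoters of genes tested and in 7.15% of all promoters. Of the promoters of 37 DNA replication genes 15.6% held a CHR element, and of those of 105 other genes listed as mitotic 41.9%. A match is a match of letters, and it does not show that a factor binds there.

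The 4 members with the largest rise at 10 µM in MYC high cells had these bases from 120 before to 30 after the start, 5′ to 3′ on the strand of the gene, with CHR and CCAAT matches in capitals. Coordinates are those of GRCm38.p6, which is not the build named for the reads.
Ccnb2 (chr9:70421525-70421674, minus strand): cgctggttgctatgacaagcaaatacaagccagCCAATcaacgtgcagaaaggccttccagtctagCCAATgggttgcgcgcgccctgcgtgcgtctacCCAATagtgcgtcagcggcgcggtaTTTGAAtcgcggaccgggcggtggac
Cdc25b (chr2:131186828-131186977, plus strand): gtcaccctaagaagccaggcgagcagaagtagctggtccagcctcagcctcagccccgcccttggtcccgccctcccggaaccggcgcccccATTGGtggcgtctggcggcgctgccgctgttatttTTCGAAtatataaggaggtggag
Kif14 (chr1:136467728-136467877, plus strand): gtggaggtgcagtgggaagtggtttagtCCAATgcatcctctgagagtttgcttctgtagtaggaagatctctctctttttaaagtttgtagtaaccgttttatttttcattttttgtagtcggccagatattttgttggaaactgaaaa
Cenpa (chr5:30666766-30666915, plus strand): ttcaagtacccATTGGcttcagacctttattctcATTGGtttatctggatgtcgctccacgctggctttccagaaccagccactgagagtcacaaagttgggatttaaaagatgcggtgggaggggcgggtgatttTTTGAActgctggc
In Ccnb2 3 CCAAT boxes precede a CHR element that begins 5 bases after the start. In Cdc25b a CCAAT box on the opposite strand precedes a TTCGAA at 8 bases after the start, and Cenpa has 2 CCAAT boxes and a CHR element at 17. Kif14 shows a CCAAT box alone in this stretch, and its CHR match lies 228 bases before the start.

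The 3 members with the largest fall at 10 µM in MYC high cells had these bases over the same stretch, marked in the same way.
Ndc80 (chr17:71526828-71526977, minus strand): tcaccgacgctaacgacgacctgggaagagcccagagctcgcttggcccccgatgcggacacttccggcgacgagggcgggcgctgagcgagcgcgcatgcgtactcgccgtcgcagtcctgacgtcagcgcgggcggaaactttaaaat
Cdca8 (chr4:124936888-124937037, minus strand): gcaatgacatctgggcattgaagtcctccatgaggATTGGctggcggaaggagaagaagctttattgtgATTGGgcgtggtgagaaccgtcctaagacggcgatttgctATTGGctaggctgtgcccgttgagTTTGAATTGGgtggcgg
Nuf2 (chr1:169531435-169531584, minus strand): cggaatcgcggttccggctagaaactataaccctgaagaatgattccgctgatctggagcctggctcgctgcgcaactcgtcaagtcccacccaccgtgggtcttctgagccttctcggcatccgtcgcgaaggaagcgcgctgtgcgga
Cdca8 carries 4 CCAAT boxes and a CHR element at 14 bases after the start, where the CHR match and the last CCAAT match overlap. Ndc80 has no match within the printed bases, since its CHR match begins at the last of them, and Nuf2 has neither motif there. The changes of members with and without a CHR match covered overlapping ranges. In MYC high cells the log2 change at 10 µM ran from −0.84 to 2.93 for the 35 members with a CHR match (median 0.57) and from −0.40 to 1.74 for the 10 without (median 0.83). In MYC low cells the medians were 0.42 with a match and 0.39 without.

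**Figure D1:**
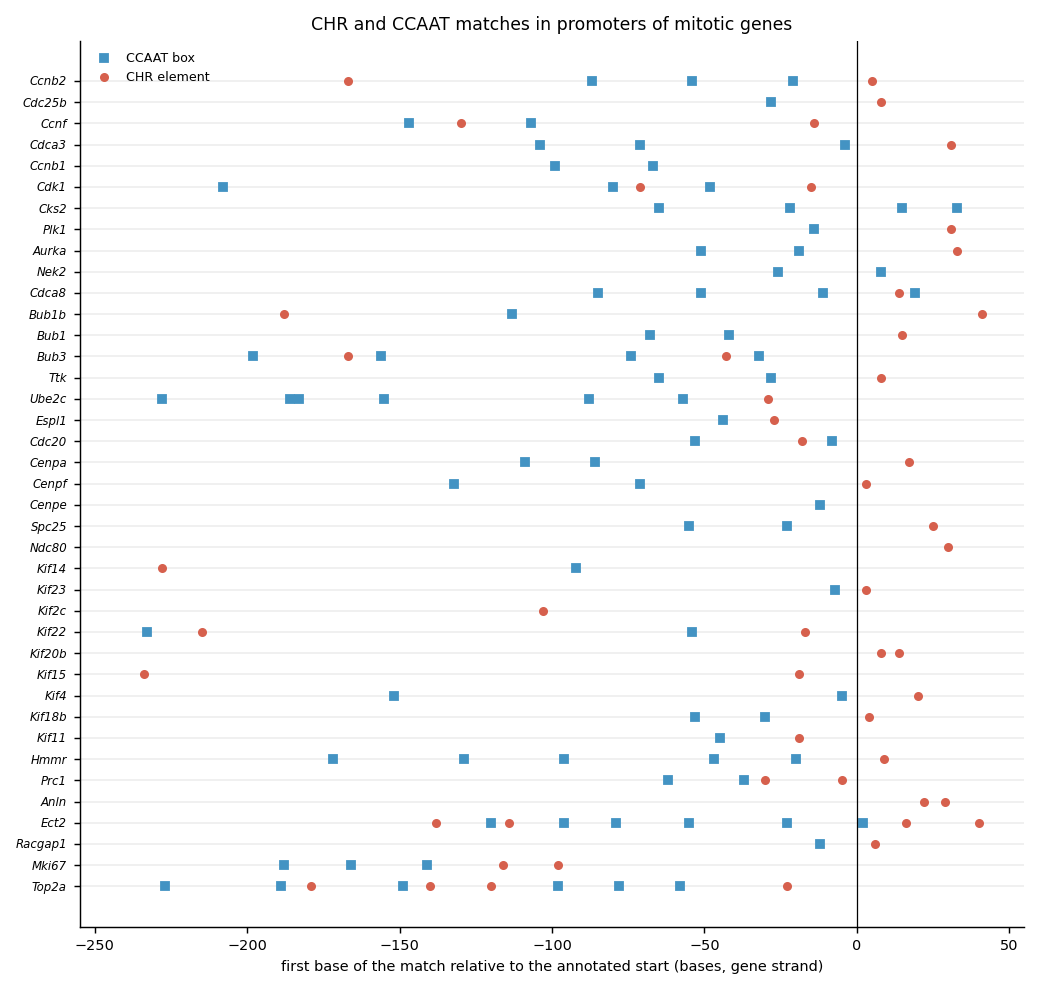
Positions of CHR elements (circles) and CCAAT boxes (squares) in the promoters of the mitotic genes, as the first base of each match in bases from the annotated start on the gene's strand; genes without a match are left out. Of 52 CHR matches 69.2% begin within 60 bases before to 50 after the start (median −14.5), and the CCAAT matches lie further upstream (median −65.0). The stretch searched ends 50 bases after the start, and matches are counted in every promoter of a gene. Positions in the promoters of other genes were not counted.

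The plot of motif positions shows most CHR matches close to the start, with the CCAAT boxes mostly on their upstream side. Whether other promoters differ in this was not counted.

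Most of the mitotic genes were higher in cells kept at 10 µM methionine than in cells kept at 200 µM, in either MYC state. In MYC high cells 43 of the 54 rose, 6 fell and 5 did not pass the test (limma on log2 of normalized count plus 1, adjusted p under 0.05 over all genes tested). The background is wide, because 37.9% of all genes tested rose and 37.9% fell in that comparison. The median change of the 54 was 0.61 on the log2 scale (1.53-fold), against −0.0039 over all genes tested. A rise of at least 2-fold was seen in 20 of the 54, against 13% of all genes tested. In MYC low cells 45 of the 54 rose, 5 fell and 4 did not pass, against 29.4% of all genes tested that rose and 29.9% that fell. Their median change was 0.42 (1.34-fold), and 7 rose at least 2-fold, against 3.39% of all genes tested. In both MYC states 41 of the 54 rose, against 21.6% of all genes tested.

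**Figure D2:**
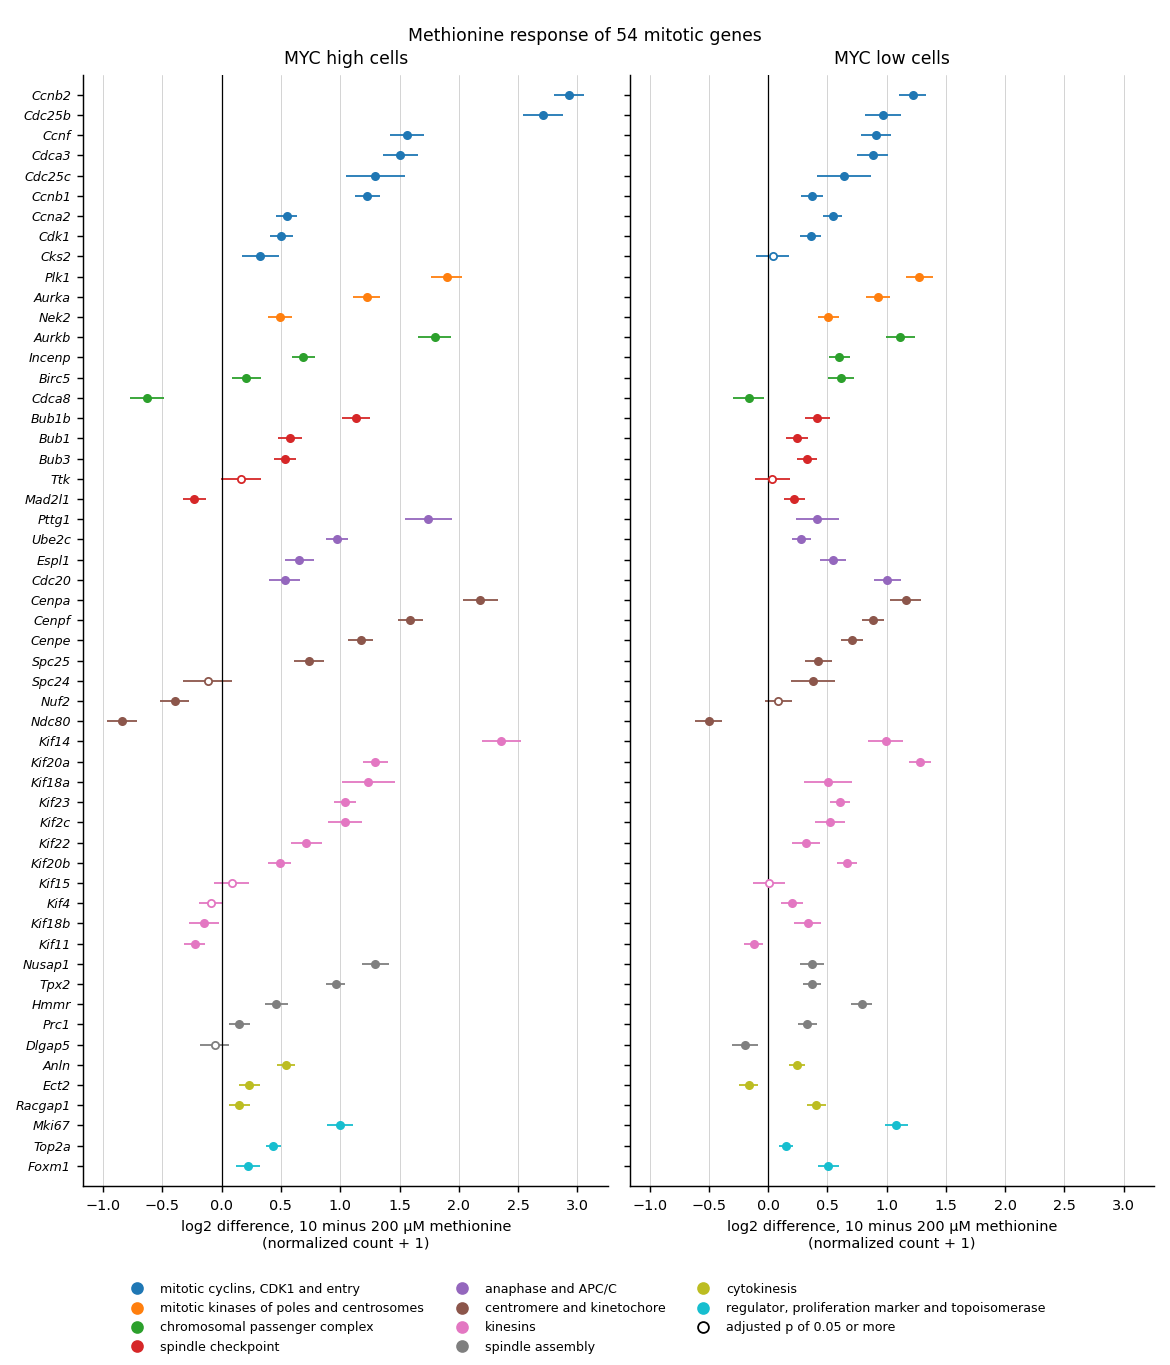
Log2 difference (normalized count + 1) of each of the 54 genes, 10 minus 200 µM methionine, in MYC high cells (left) and MYC low cells (right), with 95% intervals; colours give the role and open circles mark an adjusted p of 0.05 or more. In MYC high cells the values run from −0.84 (Ndc80) to 2.93 (Ccnb2), and in MYC low cells from −0.50 (Ndc80) to 1.28 (Kif20a).

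The plot of the methionine response, ordered by role, shows that the cyclins and entry factors, the pole kinases and the anaphase genes lay to the right of 0 throughout. The kinetochore genes and the kinesins spread to both sides.

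All 9 cyclins and entry factors rose at 10 µM in MYC high cells, by a median of 1.30 on the log2 scale (2.46-fold), and 8 of the 9 rose in MYC low cells, by a median of 0.64. Ccnb2 (ENSMUSG00000032218), which encodes cyclin B2, stood at 1474, 1632 and 1478 normalized counts in MYC high cells at 10 µM and at 214 and 186 at 200 µM. MYC low cells had 1091, 1069 and 1056 at 10 µM and 461, 465 and 454 at 200 µM. No group overlapped another, and MYC high cells held both the highest and the lowest libraries. The rise was 7.63-fold in MYC high cells (log2 2.93, SE 0.062, adjusted p = 1.03e-31) and 2.33-fold in MYC low cells (log2 1.22, SE 0.055, adjusted p = 1.29e-20). Per kilobase of exon, Ccnb2 was the most abundant of the 54 in MYC high cells at 10 µM, with 998 normalized counts per kilobase, against 130.4 per kilobase at 200 µM. The length is that of all annotated exons of a gene joined, not of its main transcript, so such ranks depend on the annotation. Cdc25b (ENSMUSG00000027330), a phosphatase that activates CDK1, stood at 749, 767 and 819 in MYC high cells at 10 µM and at 123 and 112 at 200 µM. The MYC low values were 384, 379 and 387 at 10 µM and 193, 183 and 212 at 200 µM. Its order of groups was that of Ccnb2, with a rise of 6.55-fold with MYC high (log2 2.71, adjusted p = 2.22e-26) and 1.95-fold with MYC low (log2 0.97, adjusted p = 8.87e-14). Ccnb1, cyclin B1, rose to 2043, 1919 and 1996 in MYC high cells at 10 µM, against 820 and 873 at 200 µM (2.34-fold, adjusted p = 1.31e-22). It rose in MYC low cells to 1309, 1218 and 1263 at 10 µM, against 931, 1034 and 969 at 200 µM (1.29-fold, adjusted p = 5.68e-09). Ccnb1 has processed copies in the genome with up to 99.2% identity, of which Ccnb1-ps averaged 8.48 normalized counts, so that some of its reads may have been assigned elsewhere. Ccnf, whose product is a ubiquitin ligase subunit, rose by 1.56 and Cdca3, which encodes a trigger of mitotic entry, by 1.51 on the log2 scale in MYC high cells, against 0.91 and 0.88 in MYC low cells. Cyclin A2 (Ccna2) rose alike in both, by 0.55 with MYC high and 0.54 with MYC low, with an interaction of 0.0046 (95% interval −0.12 to 0.13). Cdk1 rose by 0.50 and 0.36 on the same scale. Cks2, a small CDK-binding protein, rose by 0.32 in MYC high cells and was the member that did not pass in MYC low cells (0.04, 95% interval −0.10 to 0.18).

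The kinases of the spindle poles and centrosomes, Plk1, Aurka and Nek2, rose in both MYC states. Plk1 (ENSMUSG00000030867), the polo kinase that acts from entry to cytokinesis, stood at 1568, 1648 and 1655 normalized counts in MYC high cells at 10 µM and at 435 and 435 at 200 µM. Its levels with MYC low were 1134, 990 and 1013 at 10 µM and 463, 446 and 386 at 200 µM. The MYC states thus overlapped at 200 µM and were apart at 10 µM. Its rise was 3.72-fold with MYC high (log2 1.90, adjusted p = 4.16e-25) and 2.42-fold with MYC low (log2 1.28, adjusted p = 1.18e-20). Aurka, the kinase that matures centrosomes, stood at 1505, 1443 and 1421 in MYC high cells at 10 µM and at 615 and 631 at 200 µM. With MYC low it stood at 1046, 994 and 961 at 10 µM and at 516, 562 and 500 at 200 µM. The log2 rise was 1.22 with MYC high and 0.93 with MYC low. Nek2, which separates centrosomes, rose by 0.49 with MYC high and 0.51 with MYC low on the log2 scale, and these rises differed by −0.02 (95% interval −0.15 to 0.12).

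The chromosomal passenger complex corrects wrong attachments and later acts in cytokinesis, and its 4 genes did not move together. Aurkb (ENSMUSG00000020897), its kinase, stood at 1159, 1158 and 1152 normalized counts in MYC high cells at 10 µM and at 343 and 323 at 200 µM. The levels in MYC low cells were 691, 689 and 647 at 10 µM and 321, 280 and 336 at 200 µM. The 2 media did not overlap in either MYC state, and the rises were 3.47-fold with MYC high (adjusted p = 1.26e-23) and 2.16-fold with MYC low (adjusted p = 3.65e-18). Incenp, the scaffold, rose by 0.69 with MYC high and 0.60 with MYC low on the log2 scale. Birc5, survivin, rose by 0.21 in MYC high cells (adjusted p = 0.0024) and by 0.62 in MYC low cells. Without MYC high replicate 3 at 200 µM the rise of Birc5 in MYC high cells was 0.15 and no longer passed (adjusted p = 0.0703). Cdca8 (ENSMUSG00000028873), borealin, went the other way. It stood at 555, 554 and 622 in MYC high cells at 10 µM and at 851 and 933 at 200 µM, and with MYC low at 393, 342 and 354 at 10 µM and at 414, 401 and 403 at 200 µM. It fell 1.55-fold in MYC high cells (log2 −0.63, adjusted p = 5.67e-10). Its fall of 1.12-fold in MYC low cells (log2 −0.16, adjusted p = 0.0259) did not pass when MYC low replicate 1 at 200 µM (adjusted p = 0.0763), or replicate 2 (0.143) or 3 (0.0816) at 10 µM, was left out.

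In the spindle checkpoint 3 of 5 genes rose in MYC high cells and 4 of 5 in MYC low cells. Bub1b, which encodes the checkpoint protein BUBR1, stood at 1875, 1778 and 1873 normalized counts in MYC high cells at 10 µM and at 781 and 902 at 200 µM. MYC low cells had 1262, 1275 and 1255 at 10 µM and 951, 1034 and 866 at 200 µM. The rise was 2.19-fold with MYC high (adjusted p = 1.12e-19) and 1.33-fold with MYC low (adjusted p = 9.09e-09). The kinase Bub1 rose 1.49-fold with MYC high and 1.19-fold with MYC low, and Bub3, their binding partner, 1.45-fold with MYC high and 1.25-fold with MYC low. Mad2l1, whose product MAD2 binds CDC20, moved in opposite directions. It fell to 1262, 1331 and 1193 in MYC high cells at 10 µM, against 1459 and 1501 at 200 µM (log2 −0.23, adjusted p = 4.75e-05). With MYC low it rose to 1285, 1276 and 1330 at 10 µM, against 1108, 1106 and 1124 at 200 µM (log2 0.22, adjusted p = 2.96e-05). Ttk, the checkpoint kinase MPS1, passed in neither, with 0.16 (95% interval −0.01 to 0.33) with MYC high and 0.04 (−0.11 to 0.19) with MYC low. By edgeR's quasi-likelihood test the value in MYC high cells passed (0.18, adjusted p = 0.0306), and with library total scaling or without MYC high replicate 1 at 10 µM it also passed.

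All 4 anaphase genes rose in both MYC states. Pttg1, securin, which holds separase inactive, stood at 393, 460 and 371 normalized counts in MYC high cells at 10 µM and at 128 and 114 at 200 µM. The MYC low values were 272, 263 and 266 at 10 µM and 198, 190 and 212 at 200 µM. It rose 3.35-fold with MYC high (adjusted p = 3.13e-18) and 1.33-fold with MYC low (adjusted p = 0.000113). Ube2c, the ubiquitin-conjugating enzyme of the APC/C, rose to 2221, 2285 and 2294 in MYC high cells at 10 µM, against 1159 and 1153 at 200 µM (1.96-fold). The MYC low levels rose to 1436, 1329 and 1369 at 10 µM, against 1159, 1120 and 1127 at 200 µM (1.21-fold). Cdc20 (ENSMUSG00000006398), the APC/C activator that the checkpoint holds back, had the reverse balance. It stood at 1427, 1519 and 1373 in MYC high cells at 10 µM and at 1008 and 985 at 200 µM, and with MYC low at 1049, 893 and 1047 at 10 µM and at 534, 478 and 474 at 200 µM. The rise was 1.44-fold with MYC high (adjusted p = 1.39e-09) and 2.01-fold with MYC low (adjusted p = 6.57e-18). Espl1, separase, rose 1.58-fold with MYC high and 1.46-fold with MYC low.

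The kinetochore genes did not move as one. The centromeric histone Cenpa and the corona proteins Cenpe and Cenpf rose, while members of the NDC80 complex, which grips microtubules, ranged from a rise to the largest fall of the 54 genes. Cenpa (ENSMUSG00000029177) stood at 1111, 1209 and 1070 normalized counts in MYC high cells at 10 µM and at 243 and 254 at 200 µM. Its levels with MYC low were 601, 555 and 577 at 10 µM and 268, 272 and 235 at 200 µM. It rose 4.53-fold with MYC high (adjusted p = 2.25e-25) and 2.23-fold with MYC low (adjusted p = 7.77e-18). Cenpf rose to 1864, 1767 and 1795 in MYC high cells at 10 µM, against 587 and 613 at 200 µM (3.01-fold). MYC low cells reached 1697, 1708 and 1789 at 10 µM, against 955, 996 and 867 at 200 µM (1.85-fold). At 10 µM the MYC states overlapped. Cenpe, a kinesin of the corona, rose 2.25-fold with MYC high and 1.63-fold with MYC low.

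Within the NDC80 complex the 4 subunits differed. Ndc80 (ENSMUSG00000024056) stood at 488, 494 and 497 normalized counts in MYC high cells at 10 µM and at 875 and 890 at 200 µM. With MYC low it stood at 522, 487 and 465 at 10 µM and at 687, 668 and 728 at 200 µM. It fell 1.79-fold with MYC high (log2 −0.84, adjusted p = 7.68e-15) and 1.41-fold with MYC low (log2 −0.50, adjusted p = 7.49e-10). Nuf2 (ENSMUSG00000026683), its dimer partner, fell to 512, 537 and 519 in MYC high cells at 10 µM, against 674 and 703 at 200 µM (log2 −0.40, adjusted p = 4.11e-07). In MYC low cells Nuf2 differed by 0.09 (95% interval −0.03 to 0.20). Spc25 rose 1.66-fold with MYC high and 1.34-fold with MYC low. Spc24, the partner of Spc25, differed by −0.12 in MYC high cells (95% interval −0.32 to 0.09) and rose by 0.38 in MYC low cells (adjusted p = 0.000441).

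Of the 11 kinesins 7 rose and 2 fell in MYC high cells, and 9 rose and 1 fell in MYC low cells. Kif14 (ENSMUSG00000041498), a motor of the midzone and midbody, stood at 607, 667 and 693 normalized counts in MYC high cells at 10 µM and at 125 and 129 at 200 µM. The levels in MYC low cells were 521, 479 and 484 at 10 µM and 260, 236 and 248 at 200 µM. It rose 5.12-fold with MYC high (adjusted p = 4.51e-25) and 1.99-fold with MYC low (adjusted p = 1.18e-14). Kif20a, MKLP2, which carries the passenger complex to the midzone, stood at 1804, 1962 and 1890 in MYC high cells at 10 µM and at 767 and 766 at 200 µM. MYC low cells had 1889, 1739 and 1772 at 10 µM and 739, 783 and 699 at 200 µM. Its rise was 2.46-fold with MYC high and 2.43-fold with MYC low, and their difference was 0.02 on the log2 scale (95% interval −0.12 to 0.15). Exons of Cdc23, an APC/C subunit on the opposite strand, cover 29.3% of the exon bases of Kif20a, and the strand setting of the counting is not given in the sources used here. Without that setting it is not known whether reads of Cdc23 were kept apart from those of Kif20a over that stretch. Cdc23 itself rose by 0.70 with MYC high and 0.47 with MYC low. Kif23, MKLP1 of the centralspindlin complex, rose to 1612, 1678 and 1674 in MYC high cells at 10 µM, against 803 and 803 at 200 µM (2.06-fold). It rose in MYC low cells to 1959, 1782 and 1833 at 10 µM, against 1194, 1232 and 1233 at 200 µM (1.52-fold).

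The other kinesins differed in direction. Kif18a, which dampens chromosome movement, rose by 1.24 with MYC high and 0.51 with MYC low on the log2 scale. Per kilobase of exon, measured as for Ccnb2, Kif18a was the least abundant of the 54 (31.1 normalized counts per kilobase in MYC high cells at 10 µM). Kif2c, a microtubule depolymerase, rose by 1.04 with MYC high and 0.52 with MYC low. Kif22, a chromosome-bound motor, rose by 0.71 with MYC high and 0.32 with MYC low. Kif20b, of cytokinesis, rose by 0.49 with MYC high and 0.66 with MYC low. Kif11 (ENSMUSG00000012443), the motor that pushes the spindle poles apart, fell to 2422, 2271 and 2540 in MYC high cells at 10 µM, against 2824 and 2811 at 200 µM (log2 −0.23, adjusted p = 1.58e-05). With MYC low it fell to 1494, 1471 and 1458 at 10 µM, against 1605, 1648 and 1566 at 200 µM (log2 −0.12, adjusted p = 0.00635). These falls were small beside the difference between MYC states. Kif18b, a regulator of astral microtubules, fell in MYC high cells by 0.15 on the log2 scale (adjusted p = 0.0302), with 707, 688 and 790 at 10 µM and 786 and 829 at 200 µM, so the groups overlapped. That fall did not pass without MYC high replicate 3 at 200 µM (−0.11, adjusted p = 0.209), nor without replicate 1 (−0.13, 0.0912) or 2 (−0.11, 0.132) at 10 µM. In MYC low cells Kif18b rose by 0.33. Kif15, a spindle motor that works beside KIF11, did not pass in either state, with 0.08 (95% interval −0.06 to 0.23) with MYC high and 0.01 (−0.13 to 0.14) with MYC low. Kif4, a chromokinesin, differed by −0.09 (−0.19 to 0.01) in MYC high cells and rose by 0.20 in MYC low cells, and 15.1% of its exon bases are shared with Pdzd11 on the opposite strand.

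Among the spindle assembly genes 4 of 5 rose in each MYC state. Tpx2, which activates Aurora A on microtubules, stood at 2757, 2764 and 2831 normalized counts in MYC high cells at 10 µM and at 1413 and 1446 at 200 µM. The MYC low values were 2077, 2103 and 2010 at 10 µM and 1598, 1607 and 1584 at 200 µM. It rose 1.95-fold with MYC high (adjusted p = 1.93e-22) and 1.29-fold with MYC low (adjusted p = 2.27e-11). Nusap1, a microtubule bundler, rose to 1213, 1264 and 1278 in MYC high cells at 10 µM, against 528 and 490 at 200 µM (2.46-fold). With MYC low it rose to 867, 879 and 878 at 10 µM, against 657, 666 and 706 at 200 µM (1.29-fold). Hmmr, a pole-focusing protein, had the reverse balance, with 1.38-fold with MYC high and 1.73-fold with MYC low. Prc1, which bundles midzone microtubules, rose by 0.15 in MYC high cells (adjusted p = 0.00228) and by 0.33 in MYC low cells. The rise of Prc1 in MYC high cells did not pass without MYC high replicate 2 at 200 µM (0.11, adjusted p = 0.0634). Dlgap5, a protein of kinetochore fibres, was the exception. It differed by −0.06 in MYC high cells (95% interval −0.18 to 0.06) and fell by 0.19 on the log2 scale in MYC low cells (adjusted p = 0.00242).

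All 3 cytokinesis genes rose in MYC high cells, and in MYC low cells 2 rose and 1 fell. Anln, anillin, a scaffold of the contractile ring, rose to 3382, 3323 and 3457 normalized counts in MYC high cells at 10 µM, against 2264 and 2391 at 200 µM (1.46-fold). The MYC low levels rose to 2814, 2750 and 2782 at 10 µM, against 2321, 2356 and 2365 at 200 µM (1.19-fold). The MYC states overlapped at 200 µM and not at 10 µM. Ect2, the exchange factor that activates RhoA at the cleavage site, rose to 2036, 2141 and 2163 in MYC high cells at 10 µM, against 1814 and 1780 at 200 µM (log2 0.23, adjusted p = 1.21e-05). It fell in MYC low cells to 1276, 1264 and 1209 at 10 µM, against 1369, 1388 and 1441 at 200 µM (log2 −0.16, adjusted p = 0.000518). Racgap1, of centralspindlin, rose by 0.15 with MYC high and 0.41 with MYC low.

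The proliferation marker Mki67 stood at 5425, 4710 and 5183 normalized counts in MYC high cells at 10 µM and at 2773 and 2352 at 200 µM. Its levels with MYC low were 3837, 3733 and 3992 at 10 µM and 1952, 1809 and 1707 at 200 µM. The log2 rise was 0.997 with MYC high and 1.08 with MYC low, and these rises differed by −0.08 on the log2 scale (95% interval −0.23 to 0.06). Top2a (ENSMUSG00000020914), the topoisomerase that untangles sister chromatids, rose to 7089, 7050 and 7144 in MYC high cells at 10 µM, against 5209 and 5280 at 200 µM (1.35-fold). MYC low cells reached 5951, 5698 and 5834 at 10 µM, against 5297, 5291 and 5151 at 200 µM (1.11-fold). Foxm1, a transcription factor that activates many of the other genes, rose to 1352, 1330 and 1357 in MYC high cells at 10 µM, against 1167 and 1143 at 200 µM (1.17-fold). It rose in MYC low cells to 1361, 1258 and 1274 at 10 µM, against 961, 897 and 880 at 200 µM (1.42-fold).

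**Figure D3:**
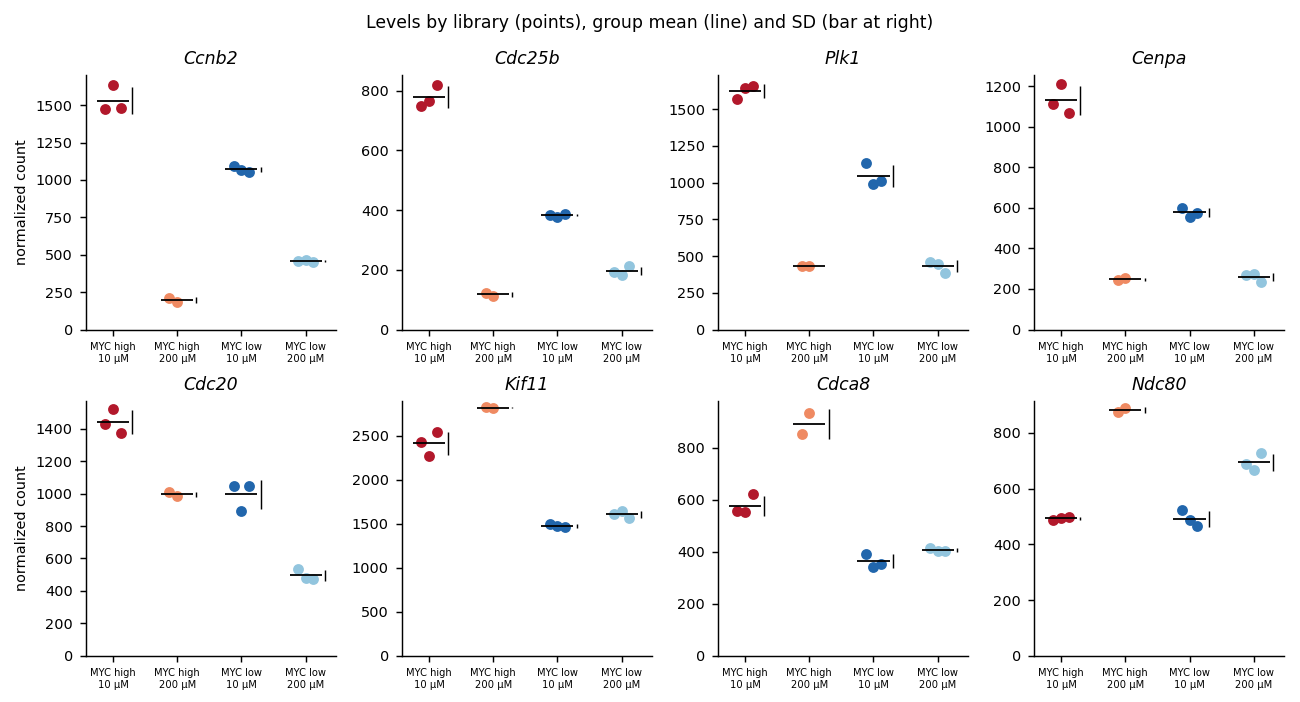
Normalized counts of 8 of the genes in each library (points), with the group mean (line) and SD (bar). Ccnb2, Cdc25b, Plk1 and Cenpa are highest in MYC high cells at 10 µM, Cdc20 is lowest in MYC low cells at 200 µM, and Kif11, Cdca8 and Ndc80 are highest in MYC high cells at 200 µM.

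The plots of single genes show these 3 patterns. For Ccnb2 and Cdc25b the order of the MYC states turns over between the media, for Kif11 and Cdca8 the MYC high libraries lie above the MYC low libraries in both, and for Ndc80 the MYC states meet at 10 µM.

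The methionine response differed between the MYC states for 43 of the 54 genes by limma's interaction term (60.4% of all genes tested), which is the change in MYC high minus that in MYC low cells. It was positive for 29 and negative for 14, against 31% positive and 29.4% negative of all genes tested, and its median was 0.28. Of the 41 genes that rose in both states, 27 had a larger rise in MYC high cells by the interaction term. Of all genes tested 21.6% rose in both states, which is the background of the 41 and not of the 27. The share of all genes with a larger, or a smaller, rise in MYC high cells was not counted. The 27 thus has no background and is not read as a trait of the 54. The largest interactions were 1.75 for Cdc25b (adjusted p = 6.72e-16), 1.71 for Ccnb2 (adjusted p = 1.38e-19), 1.36 for Kif14, 1.33 for Pttg1 and 1.02 for Cenpa. A rise in both states that was smaller in MYC high cells was seen for Birc5, Cdc20, Kif20b, Prc1, Hmmr, Racgap1 and Foxm1, with interactions from −0.47 (Cdc20) to −0.18 (Kif20b and Prc1). The interaction of Kif20b did not pass without MYC high replicate 2 (adjusted p = 0.0924) or MYC low replicate 1 (0.0643) at 200 µM, and that of Prc1 without MYC high replicate 3 at 200 µM (0.0560). That of Cks2 (0.28, adjusted p = 0.0165) did not pass without MYC high replicate 2 at 200 µM (0.158) or MYC low replicate 3 at 10 µM (0.0601). Across the 54 genes the responses of the 2 MYC states had a Pearson r of 0.78, against 0.65 across all genes tested. This is a description, since genes are not independent and the values come from shared libraries within each state.

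The difference between MYC high and MYC low cells depended on the medium. At 10 µM 45 of the 54 genes were higher in MYC high cells, 2 were lower and 7 did not pass, against 35.7% of all genes tested that were higher and 35.8% that were lower. The median difference of the 54 was 0.43 on the log2 scale (1.34-fold). At 200 µM 29 were higher, 14 were lower and 11 did not pass, against 36.8% and 37.6% of all genes tested, with a median of 0.26. The lower count at 200 µM depended on the scaling. Under library total scaling 28 were higher and 19 lower, with Top2a, Anln, Bub3, Ccnf and Kif2c added to the lower genes. These comparisons use different libraries from each other, but each shares its libraries with the methionine comparisons.

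**Figure D4:**
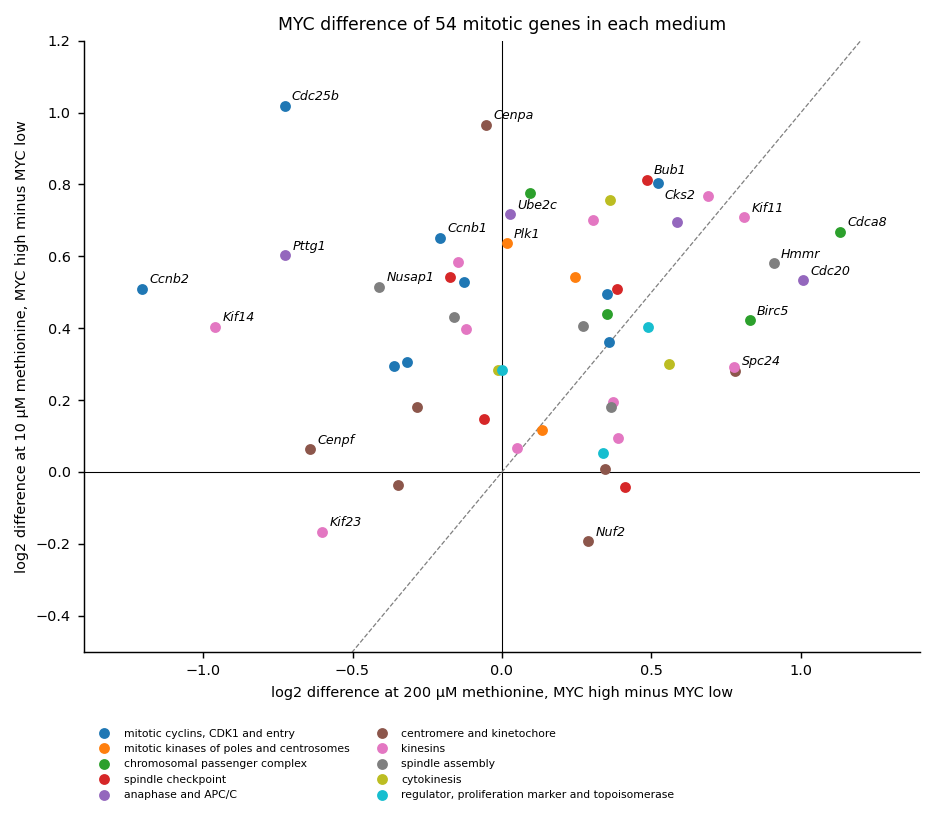
Log2 difference of MYC high minus MYC low cells for each of the 54 genes, at 200 µM methionine (horizontal) and at 10 µM methionine (vertical); the dashed line marks equal differences and colours give the role. Ccnb2, Kif14, Cdc25b and Pttg1 lie left of 0 and above it, and Cdca8, Cdc20, Hmmr and Kif11 lie to the right and above 0.

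The upper left of the plot of MYC differences holds 11 genes that were higher in MYC high cells at 10 µM and lower at 200 µM, both past the test, a pattern shown by 5.23% of all genes tested. They are Ccnb1, Ccnb2, Cdc25b, Cdc25c, Cdca3, Bub1b, Pttg1, Cenpe, Kif14, Tpx2 and Nusap1. Ccnb2 was 1.42-fold higher in MYC high cells at 10 µM (log2 0.51, adjusted p = 2.15e-10) and 2.30-fold lower at 200 µM (log2 −1.20, adjusted p = 1.63e-19). The log2 differences at 10 µM and at 200 µM were 0.40 and −0.96 for Kif14, 1.02 and −0.73 for Cdc25b, and 0.60 and −0.73 for Pttg1. Cdc25c, a further phosphatase of CDK1, had 0.29 at 10 µM (adjusted p = 0.0175) and −0.36 at 200 µM (adjusted p = 0.00887). Its value at 10 µM did not pass without MYC high replicate 1 (0.26, 0.0687) or MYC low replicate 3 (0.23, 0.101), and its value at 200 µM was −0.18 without MYC high replicate 2 (adjusted p = 0.266). It also failed under library total scaling at 10 µM (0.24, adjusted p = 0.0536) and by DESeq2 at 200 µM (−0.34, adjusted p = 0.0583). Bub1b had −0.17 at 200 µM (adjusted p = 0.00696), where the groups overlapped, and this did not pass without MYC high replicate 2 (−0.07, 0.350) or MYC low replicate 2 (−0.11, 0.0907), nor without the mean-variance trend (adjusted p = 0.0778).

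In both media 24 of the 54 genes were higher in MYC high cells, against 23.2% of all genes tested. Among them Cdca8 had a log2 difference of 0.67 at 10 µM and 1.13 at 200 µM (adjusted p = 7.98e-17 at 200 µM), and Cdc20 had 0.53 at 10 µM and 1.01 at 200 µM (adjusted p = 5.03e-17 at 200 µM). Kif11 had 0.71 at 10 µM and 0.81 at 200 µM (adjusted p = 5.52e-19 at 200 µM). Hmmr had 0.58 at 10 µM and 0.91 at 200 µM, and Birc5 had 0.42 at 10 µM and 0.83 at 200 µM. These 5 genes had the largest positive differences at 200 µM. Spc24 had 0.28 at 10 µM and 0.78 at 200 µM, and the value at 10 µM did not pass without MYC low replicate 2 (0.20, adjusted p = 0.0739). Nek2 was close to the threshold in both media, with 0.12 at 10 µM (adjusted p = 0.0193) and 0.14 at 200 µM (adjusted p = 0.0145). Those values did not pass without MYC low replicate 2 at 10 µM (0.0660), and without MYC high replicate 3 (0.182) or MYC low replicate 2 (0.0728) at 200 µM. Under library total scaling Nek2 passed in neither medium, with 0.06 at 10 µM (adjusted p = 0.238) and 0.05 at 200 µM (adjusted p = 0.373). At 10 µM the largest differences were those of Cdc25b (1.02, adjusted p = 8.16e-15), Cenpa (0.97, adjusted p = 5.68e-16), Bub1 (0.81), Cks2 (0.81) and Aurkb (0.78). Cenpa had −0.05 at 200 µM (95% interval −0.20 to 0.09) and Aurkb 0.09 (−0.04 to 0.23), so neither was told apart there. Lower in MYC high cells at 10 µM were Nuf2 (−0.19, adjusted p = 0.0021) and Kif23 (−0.17, adjusted p = 0.000524), joined by Mad2l1 under library total scaling (−0.10, adjusted p = 0.0364). The 7 that did not pass at 10 µM were Mad2l1, Spc25, Ndc80, Foxm1, Cenpf, Kif20a and Kif4.

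In 38 of the 54 genes every MYC high library at 10 µM lay above every library of the other 3 groups, against 16.5% of all genes tested. The highest group mean was that of MYC high cells at 10 µM for 43 genes, against 24.6% of all genes tested. The other 11 were Cdca8, Mad2l1, Ndc80, Nuf2, Spc24, Spc25, Kif11, Kif18b, Kif23, Kif4 and Dlgap5, among them all 4 subunits of the NDC80 complex.

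Summed over the 54 genes, reads of MYC high cells at 10 µM held a share of 0.673% ± 0.0068 (SD, n = 3) of all gene reads, against 0.421% ± 0.0031 (SD, n = 2) at 200 µM. With MYC low the share was 0.535% ± 0.0099 at 10 µM and 0.384% ± 0.0014 at 200 µM (SD, n = 3 each). No library of 1 group reached into another. A list of 46 genes of DNA replication, the origin and fork proteins that act in S phase, went the other way. Its share was 0.349% ± 0.0011 with MYC high at 10 µM and 0.598% ± 0.0072 at 200 µM, and with MYC low it was 0.275% ± 0.0062 at 10 µM and 0.349% ± 0.0058 at 200 µM. The mitotic reads were 1.93 ± 0.025 times the replication reads in MYC high cells at 10 µM and 0.704 ± 0.0033 times at 200 µM. With MYC low the ratio was 1.95 ± 0.013 at 10 µM and 1.10 ± 0.022 at 200 µM. The 2 MYC states therefore had about the same ratio at 10 µM, with libraries from 1.90 to 1.95 in MYC high and from 1.94 to 1.96 in MYC low cells. At 200 µM they were apart, with libraries from 0.701 to 0.706 in MYC high and from 1.08 to 1.12 in MYC low cells.

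**Figure D5:**
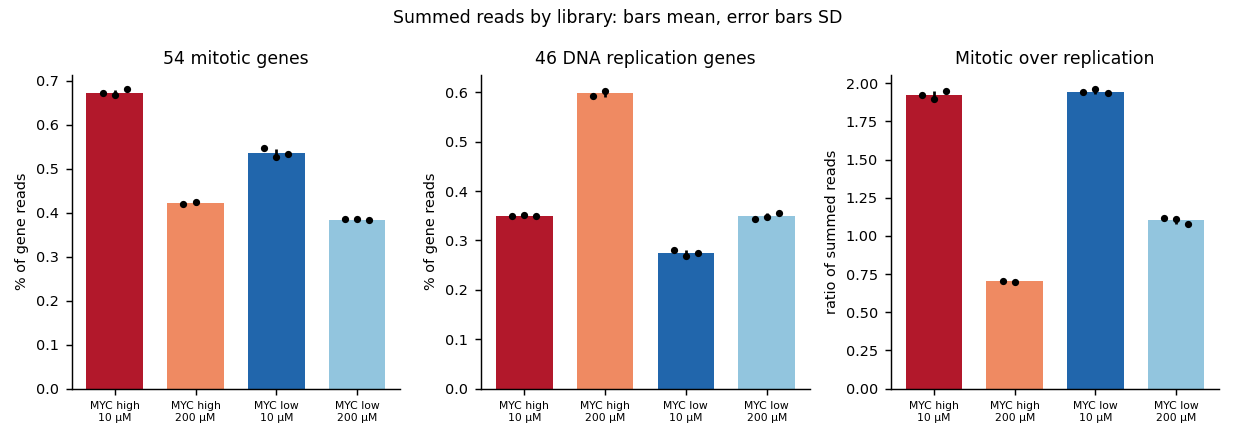
Share of gene reads on the 54 mitotic genes (left), on 46 DNA replication genes (middle) and the ratio of mitotic to replication reads (right), by group; bars are means, error bars SD and points single libraries. The mitotic share is highest in MYC high cells at 10 µM (0.673%) and the replication share in MYC high cells at 200 µM (0.598%).

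The bars of summed reads show the mitotic and replication shares in opposite order across the media. Of the 46 replication genes 8 rose and 30 fell at 10 µM in MYC high cells, with a median of −0.60. Of all genes tested 37.9% rose and 37.9% fell there. In MYC low cells 7 of the 46 rose and 32 fell, with a median of −0.29, against 29.4% and 29.9% of all genes tested. The helicase subunit Mcm4 fell to 1562 ± 34.6 normalized counts in MYC high cells at 10 µM, against 5345 ± 231 at 200 µM (log2 −1.77, adjusted p = 1.29e-30). In MYC low cells Mcm4 fell to 1545 ± 32.7 at 10 µM, against 2507 ± 63.4 at 200 µM. Comparing the MYC states, 36 of the 46 were higher in MYC high cells at 10 µM and 42 at 200 µM. The shares of all genes tested were 35.7% at 10 µM and 36.8% at 200 µM.

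Genes outside the 54 that were listed as mitotic did not share 1 direction. Of 126 further genes, listed by role with earlier results of these data known, 125 were matched and tested. At 10 µM 50 rose and 56 fell in MYC high cells (median −0.02), and 55 rose and 40 fell in MYC low cells (median 0.11). Of all genes tested 37.9% rose and 37.9% fell in MYC high cells, and 29.4% rose and 29.9% fell in MYC low cells. As shares of the 125 the counts are 40% risen and 44.8% fallen with MYC high and 44% risen and 32% fallen with MYC low. The gene named first from each list below had the smallest adjusted p of its list in any comparison between groups. It need not move as most of its list did. Among 32 other kinetochore genes 9 rose and 17 fell in MYC high cells, with Dsn1, a subunit of the MIS12 complex that holds the NDC80 complex, down by 1.56 on the log2 scale (difference −1.56, adjusted p = 4.68e-21). Among 20 condensin, cohesin and shugoshin genes 8 rose and 12 fell, and the condensin subunit Ncaph2 rose by 1.39. Among 17 APC/C genes 8 rose and 6 fell, and the subunit Anapc16 had −1.79. Of 26 spindle and centrosome genes 10 rose and 9 fell, and Aspm, a pole protein, rose by 1.85. Of 10 midbody and abscission genes 8 rose and 1 fell, and the kinase Cit rose by 1.22. Of 20 further regulators of entry and exit 7 rose and 11 fell. That list is wider than mitosis, since it holds the G1 cyclin Ccnd1, which had −0.34 with MYC high and 0.29 with MYC low. The counts over the 125 include that list.

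Reads of some of the 54 genes may be shared with other genes. Besides Kif20a and Kif4, exons on the opposite strand overlap those of Ube2c (22.8% of its exon bases, Tnnc2), Cdc25c (12.7%, Gm3550), Ccna2 (12.5%, Exosc9), Prc1 (11.1%, Rccd1), Plk1 (7.09%, Gm44985) and Nek2 (6.60%, Gm38037). Tnnc2 averaged 16.7 and Gm3550 3.51 normalized counts over all libraries, while Exosc9 averaged 971 and Rccd1 719, so that the values of Ccna2 and Prc1 are the less certain ones. Cks2 has a copy, Gm15452, that is identical over 240 bases and averaged 1.10 normalized counts.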

How the data were processed

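The authors deposited 1 table of normalized counts, a signal per gene and library, from polyadenylated RNA of 11 libraries made with NEBNext Ultra II reagents, per the labels. The build GRCm39 and the tools DESeq2, HTSeq, STAR, SAMtools, fastp and FastQC come from the submitters' processing notes. For the annotation, strand setting and versions, nothing is given in the sources used here. GENCODE M21 gave symbols for 52083 of 55416 identifiers. Of 196666 values above 0, 100% were whole reads within 0.001 after multiplication by size factors of 0.875 to 1.13, and 0 columns belonged to other samples.

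Log2 of the normalized count plus 1, which understates changes of genes with low values, was compared between groups with limma 3.58.1 in R 4.3.3, over all 11 libraries with 1 mean per group and a mean-variance trend, for 12909 genes with a mean of at least 10. P-values were adjusted by Benjamini-Hochberg over all genes in each comparison at 0.05. The spread was pooled, so the MYC high, 200 µM group, with 2 libraries, is assumed to vary like the others. SE is limma's, and intervals are 95%. The script was tested on simulated data. Alternatives were edgeR 4.0.16 (quasi-likelihood) and DESeq2 1.42.0 on the recovered counts, TMM and library total scaling, pseudocounts of 0.5 and 5, no filter or a mean of at least 50, no trend, a replicate block, only the groups compared, and each library left out in turn. Copies were searched with blastn 2.17.0 (at least 95% identity over 150 bases).

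The members and lists were chosen with earlier results of these data known. All 54 members could be named. Values in every library could be given for up to 3 members of each role with the smallest adjusted p, and further for members against the direction of most and members that did not pass. They are printed for some of these, and the others have log2 differences or folds only. From other lists up to 3 genes with the smallest adjusted p could be named, besides Myc and the most abundant gene of each marker list. Those were Apob (0.448 normalized counts on average), Col1a1 (9.01), Pecam1 (1.34), Csf1r (481) and Krt8 (8152). Cd68, Cd14, Krt18, Afp and Cdc23 were named after their values were seen.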

Additional observations from a re-analysis of the deposited data

Results flagged for a closer look

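The values here are differences between the methionine responses of the MYC states, as the log2 change at 10 over 200 µM in MYC high cells minus that in MYC low cells. Each is listed because limma's interaction term passed at an adjusted p under 0.05. A positive value means a change that was more positive in MYC high cells. Among the cyclins and entry factors the log2 interaction was Ccnb1 0.86, Ccnb2 1.71, Ccnf 0.65, Cks2 0.28, Cdc25b 1.75, Cdc25c 0.66 and Cdca3 0.62. Among the kinases of the poles and the passenger complex the log2 interaction was Plk1 0.62, Aurka 0.30, Aurkb 0.68, Birc5 −0.41 and Cdca8 −0.46. Among the checkpoint and anaphase genes the log2 interaction was Bub1 0.33, Bub1b 0.72, Bub3 0.21, Mad2l1 −0.45, Cdc20 −0.47, Ube2c 0.69 and Pttg1 1.33. Among the kinetochore genes the log2 interaction was Cenpa 1.02, Cenpe 0.46, Cenpf 0.71, Ndc80 −0.34, Nuf2 −0.48, Spc24 −0.50 and Spc25 0.31. Among the kinesins the log2 interaction was Kif14 1.36, Kif18a 0.73, Kif18b −0.49, Kif20b −0.18, Kif22 0.39, Kif23 0.44, Kif2c 0.52 and Kif4 −0.29. Among the spindle, cytokinesis and remaining genes the log2 interaction was Prc1 −0.18, Tpx2 0.59, Nusap1 0.93, Hmmr −0.33, Ect2 0.40, Anln 0.30, Racgap1 −0.26, Foxm1 −0.29 and Top2a 0.28. For genes outside the 54 that the text names it was Cd68 2.78, Ncaph2 0.67, Anapc16 −0.98, Myc −0.88, Mcm4 −1.08, Cdc23 0.24, Dsn1 −0.89, Cit 0.80, Aspm 0.96, Cd14 −0.78, Afp 0.64, Krt18 −0.75, Krt8 −0.15, Cdc25a −1.36 and Ccnd1 −0.64. Of the 54 genes, Ect2 and Mad2l1 changed sign between the MYC states, each with an adjusted p under 0.05 in both: Ect2 had 0.23 with MYC high and −0.16 with MYC low, and Mad2l1 had −0.23 with MYC high and 0.22 with MYC low. Kif18b also did, with −0.15 with MYC high and 0.33 with MYC low, but its fall in MYC high cells was lost when any of 3 libraries was left out. Of the others named, Ccnd1 had −0.34 with MYC high and 0.29 with MYC low, and Krt18 had −0.32 with MYC high and 0.42 with MYC low. Causes were not tested.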

How the results depend on the processing

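Over 22 alternatives, 234 of 270 gene results (54 genes in 5 comparisons) kept both their call and their direction, 13 of 232 calls were lost under at least 1 alternative, 12 were gained, and 0 called differences turned. The 2 genes lower in MYC high cells at 10 µM became 3 under library total scaling, and no other count of members or of genes called moved by 1.5 times. Members higher and lower ranged from 43 to 46 and 2 to 3 (MYC states at 10 µM), 28 to 29 and 12 to 19 (MYC states at 200 µM), 42 to 44 and 5 to 6 (methionine, MYC high cells), 45 to 45 and 4 to 5 (methionine, MYC low cells) and 28 to 30 and 13 to 15 (interaction). On the recovered reads edgeR called 9386, 9583, 9718, 7915 and 7757 genes in that order, against limma's 9232, 9600, 9787, 7666 and 7798. DESeq2 called fewer in each, with 8716, 8996, 9240, 7050 and 6933. Using only the groups compared gives no interaction. The 14 differences whose sign turned had not passed the test, and the cause was not tested. Library total scaling gave −0.050 for Ndc80 and −0.0045 for Foxm1 between MYC states at 10 µM, −0.071 for Plk1, −0.060 for Ube2c and −0.035 for Kif20a at 200 µM, and 0.0092 for the interaction of Nek2. DESeq2 gave 0.0079 for Top2a at 200 µM and −0.00092 for the interaction of Ccna2. With 1 library left out, values ran from −0.031 to 0.052 (Ndc80) and −0.071 to 0.0045 (Spc25) between MYC states at 10 µM, and from −0.063 to 0.068 (Plk1), −0.052 to 0.027 (Anln) and −0.014 to 0.0094 (Top2a) at 200 µM. They ran from −0.028 to 0.091 (Ttk) and −0.030 to 0.040 (Kif15) for methionine in MYC low cells, and from −0.042 to 0.051 (Ccna2), −0.062 to 0.024 (Nek2), −0.026 to 0.056 (Kif20a) and −0.20 to 0.034 (Mki67) for the interaction. Without MYC high replicate 3 at 200 µM the interaction of Mki67 passed (−0.20, adjusted p = 0.0179). Replicate numbers did not pair the libraries: the deviations of same-numbered libraries correlated by −0.049 to 0.026 over 15 pairs, and 0 of 11 libraries lay closest to their own number. A replicate block gave 0.0069 for Top2a at 200 µM and −0.0069 for the interaction of Ccna2, ended the call of the fall of Kif18b in MYC high cells (−0.13, adjusted p = 0.0558), and left the other member counts as they were (43 higher and 5 lower there). Kif18b also failed under DESeq2, TMM, library total scaling, no filter and no trend (adjusted p = 0.0540 to 0.140), and Cdca8 in MYC low cells under DESeq2, no filter and no trend (0.0559 to 0.0930). The interaction of Cks2 failed under DESeq2 (0.0501). Counting error and 2 to 3 libraries a group limit what differences near 0 can show.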
